A study of Mus musculus with 16 samples.

Results

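Gamma-delta T cells were taken from CD45+ cells of rejecting kidney allografts 1 week after transplantation and of naive spleen. The rule chose cells with at least 2 raw unique molecular identifiers (UMIs, each standing for 1 captured mRNA molecule) summed over Cd3e, Cd3d, and Cd3g, with at least 1 UMI of Trdc, the constant gene of the T cell receptor delta chain, and with no UMI of Cd4, Cd8a, Cd8b1, Ncr1, Cd79a, or C1qa. It found 311 cells among 59008 CD45+ cells, 31 of 11948 in kidney and 280 of 47060 in spleen. The cells were chosen by these UMI counts, so the genes of the rule are given below as a description and stayed out of every test. The study set accepted mouse kidney allografts beside rejecting allografts and naive spleen to follow T cells with acceptance and rejection. Viable CD45+ cells were sorted from perfused, collagenase-digested kidneys and from ground, lysed spleens and were profiled by droplet scRNA-seq of transcript 3′ ends. Both samples were labelled wild-type C57BL/6J (B6). By the paper, the rejecting allografts were B6 kidneys in DBA/2J recipients, for which it names no drug treatment. Infiltrating recipient cells would then be of the DBA/2J strain. Tissue, strain, transplantation, digestion, and capture run therefore cannot be told apart between the kidney and the spleen cells. Library tags in the cell barcodes gave 2 kidney and 5 spleen libraries. By the paper's methods each mouse was a separate sample and the mice of a time point were joined in the data, but no tag is tied to a mouse, and the replicate number given for that week is not that of the kidney tags. The p-values measure the spread between libraries, which for expression was estimated over both tissues together.

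Gamma-delta T cells carry a T cell receptor of a gamma and a delta chain in place of the alpha and beta chains of most CD4+ and CD8+ T cells, and most of them lack CD4 and CD8. In mice they leave the thymus as sets with different gamma variable segments, and these sets differ in the tissues they settle in. Broadly, one program yields IL-17 and depends on factors such as Sox13 and Maf, and another yields IFN-gamma and cytotoxic molecules and shares receptors with natural killer (NK) cells.

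The CD3 count was met by a margin in most cells, whereas 16 of the 31 kidney cells met the Trdc count with a single UMI. Of the kidney cells, 4 had 2 CD3 UMIs and 27 had 3 or more, and of the spleen cells, 14 had 2 and 266 had 3 or more. Just outside the rule, with 1 CD3 UMI, lay 7 cells in each tissue. Trdc was read at 1, 2, and 3 or more UMIs in 16, 8, and 7 kidney cells and in 56, 37, and 187 spleen cells. A Trdc UMI was also found in 0.621% of CD3+ cells with a Cd8a UMI in kidney and 1.77% in spleen, in 0 of 359 and 1.36% of those with a Cd4 UMI, and in 16 of 248 and 184 of 1023 NK cells (Ncr1 UMI, under 2 CD3 UMIs). In B cells, which should lack the gene, it was found in 0 of 54 kidney cells, which allows a share of up to 5.56%, and in 0.184% of spleen cells. Myeloid cells (C1qa UMI, no CD3 or Cd79a UMI) should lack it too. There it was found in 1 of 2282 kidney cells (0.0438%) and in 7 of 349 spleen cells (2.01%), above the share of spleen Cd8a cells. Were Trdc read in the other CD3+ cells without Cd4, Cd8a, or Cd8b1 UMIs at the share of Cd8a cells, 3.604 of the 31 kidney cells and 63.8 of the 280 spleen cells would have been chosen at that share alone. The median depth was 1640 UMIs per gamma-delta cell in kidney and 3576 in spleen. It was 1382 for kidney B cells, and 2511 and 4485 for the 1441 and 3611 Cd8a T cells (CD3+ with a Cd8a UMI and none of Cd4 or Trdc) used as a reference. The second reference was the 359 and 2602 Cd4 T cells, with a Cd4 UMI and none of Cd8a, Cd8b1, or Trdc, at median depths of 2481 and 3724 UMIs.

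Gamma-delta cells made up a smaller measured share of CD3+ cells in rejecting kidney than in any spleen library. The share was 0.691% and 1.49% in the kidney libraries, and 2.49%, 2.34%, 3.24%, 2.32%, and 1.81% in the spleen libraries. No kidney value reached the lowest spleen value. The means were 1.09% ± 0.565 (SD, n = 2) and 2.44% ± 0.518 (SD, n = 5), a difference of -1.35 percentage points (2-sided exact permutation test, p = 0.0952, the smallest p that 2 against 5 libraries allow). With every cell thinned to 1000 UMIs before the rule was applied, 30 and 140 cells were left and the difference was -0.979 points (exact p = 0.19). Cells without any UMI of Trac, Trbc1, or Trbc2 went the other way, at 0.351% against 0.164% of CD3+ cells (exact p = 0.0952), with 10 and 19 cells, while the difference was below 0 in the other alternatives run. Of all CD45+ cells, gamma-delta cells were 0.259% in kidney and 0.595% in spleen.

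**Figure D1:**
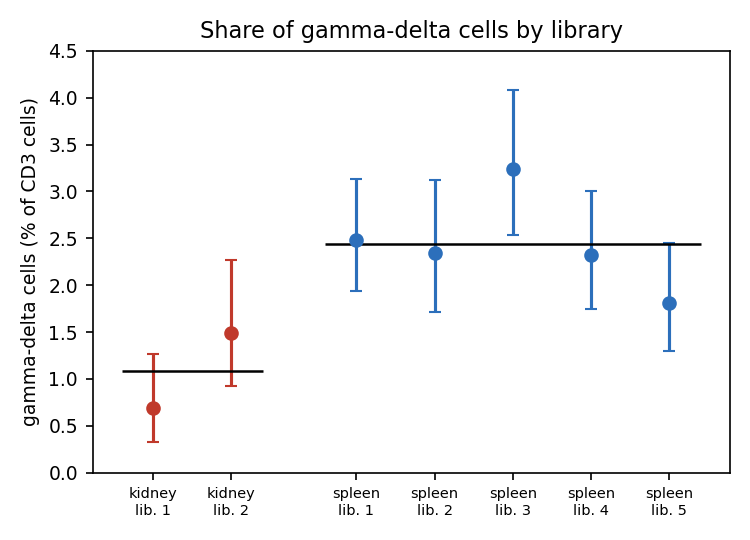
Share of gamma-delta cells among CD3+ cells (y axis, percent) in 2 libraries of rejecting kidney (red) and 5 libraries of naive spleen (blue), with 95% Clopper-Pearson intervals as error bars, which cover counting error only, and the mean of each tissue as a line. Both kidney points, at 0.691% and 1.49%, lie below the lowest spleen point at 1.81%.

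Gamma constant genes, which the rule did not use, were the first check of the label. Mice have 4 of them, and reads cannot be assigned with equal certainty to each. The first 90 bases of the first coding exon of each gene are shown to let their likeness be seen. The libraries read transcript 3′ ends, which were not compared here. They are from GENCODE release M21 of GRCm38 (mm10), on chromosome 13, and run 5′ to 3′ along the coding strand, with bases that differ from Tcrg-C1 in capitals:
Tcrg-C1 (chr13:19214103-19214192, plus strand): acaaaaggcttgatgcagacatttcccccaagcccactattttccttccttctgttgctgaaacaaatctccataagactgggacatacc
Tcrg-C2 (chr13:19307462-19307551, minus strand): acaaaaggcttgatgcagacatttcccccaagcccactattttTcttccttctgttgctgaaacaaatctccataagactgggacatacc
Tcrg-C3 (chr13:19260885-19260974, plus strand): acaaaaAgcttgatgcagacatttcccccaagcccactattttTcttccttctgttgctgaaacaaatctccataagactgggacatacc
Tcrg-C4 (chr13:19344558-19344647, plus strand): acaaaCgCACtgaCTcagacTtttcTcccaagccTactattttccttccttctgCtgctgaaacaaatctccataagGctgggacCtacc
Over the whole exon of 330 bases, Tcrg-C2 matched Tcrg-C1 at 97.3% of bases, Tcrg-C3 at 96.1%, and Tcrg-C4 at 82.1%. How reads were split among such near copies was not tested, so values of Tcrg-C1, Tcrg-C2, and Tcrg-C3 singly are uncertain, and the genes were also counted together. Tcrg-C3 was counted in kidney alone, where it was read in 6.45% of gamma-delta cells.

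A gamma constant UMI was found in 18 of 31 kidney cells (58.1%, 95% interval 39.1% to 75.5%) and in 188 of 280 spleen cells (67.1%, 61.3% to 72.6%). It was found in 12.5% of kidney and 1.66% of spleen Cd8a T cells, in 1.11% and 0.538% of Cd4 T cells, and in 12.5% and 2.35% of NK cells. Thinned to 1000 UMIs per cell, the gamma-delta shares were 45.2% and 30.1%, against 6.94% and 0.499% in Cd8a T cells. Trac, the alpha constant gene, had a UMI in 9.68% and 25.0% of gamma-delta cells, against 83.6% and 74.9% of Cd8a T cells and 4.44% and 2.05% of NK cells. Of the spleen gamma-delta cells, the 70 with a Trac UMI held a gamma constant UMI in 45.7% of cells and the 210 without in 74.3%. Trbc1 or Trbc2, the beta constant genes, had a UMI in 61.3% and 92.1% of gamma-delta cells, 54.8% and 67.3% of NK cells, and 92.4% and 99.1% of Cd8a T cells. At 1000 UMIs per cell the shares were 45.2% and 73.1% in gamma-delta cells, 38.3% and 41.0% in NK cells, and 74.4% and 80.9% in Cd8a T cells. In beta constant RNA, spleen gamma-delta cells thus lay nearer to Cd8a T cells, and kidney gamma-delta cells nearer to NK cells. Any of the 3 alpha-beta constant genes had a UMI in 67.7% of kidney and 93.2% of spleen gamma-delta cells. The authors' own CD8 T cell matrices hold 3 of the 31 kidney cells and 22 of the 280 spleen cells (7.86%), against 85.3% and 90.1% of the Cd8a T cells. Against Cd8a and Cd4 T cells, gamma constant and Trac UMIs thus went with the label for most cells without thinning, and beta constant UMIs did not. Low Trac did not set the cells apart from NK cells. Tcrg-C4 was the only gamma constant gene read in kidney NK cells (31 of 248), beside 12 of 31 kidney gamma-delta cells. Of the spleen gamma-delta cells, 25.0% held UMIs of both Trdc and Trac.

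Of the variable segments counted in both tissues, Trgv2 was read in the most cells of both tissues. Trgv2 had a UMI in 67.7% of kidney and 38.6% of spleen gamma-delta cells, but also in 27.8% of kidney Cd8a T cells against 0.914% in spleen. Tcrg-V1 had a UMI in 45.2% and 12.9% of gamma-delta cells, and in 1.73% and 0.138% of Cd8a T cells. Thinned to 1000 UMIs per cell, the gamma-delta shares were 51.6% and 12.5% for Trgv2 and 41.9% and 5.38% for Tcrg-V1. Tcrg-V4, the segment of many IL-17 cells, was found in 1 kidney cell and in 11.1% of spleen cells, and after thinning in 0 of 31 and 1.79%. Of the delta variable genes, Trdv5 was found in 1 kidney cell and in 7.86% of spleen cells, and Trdv1 and Trdv2-2 were found in 5.36% and 6.79% of spleen cells and in 0 of 31 kidney cells, which by the limit of 3 counts allows a share of cells with a UMI of up to 9.68%. After thinning Trdv5 was found in 3.23% and 3.58% of cells, and Trdv1 and Trdv2-2 in 1.43% and 1.79% of spleen cells, so that no difference between the tissues was detectable for Tcrg-V4 and the delta segments at this depth. Trdv4 was found in 0 of 31 kidney and 1.79% of spleen gamma-delta cells, below the 10.1% and 8.70% of NK cells.
A segment's RNA does not show which chain the cell used, since unrearranged and out-of-frame segments are transcribed too. Tcrg-V1 was read with its neighbour Tcrg-C4 in more cells than with the other constant genes, while Tcrg-V4 and Trgv2 were read with several constant genes at similar counts. Of the 36 spleen cells with Tcrg-V1, 26 held Tcrg-C4, 20 held Tcrg-C2, and 9 held Tcrg-C1. Of the 31 with Tcrg-V4, 12 held Tcrg-C1, 18 held Tcrg-C2, and 13 held Tcrg-C4. Of the 108 with Trgv2, 55 held Tcrg-C2, 48 held Tcrg-C4, and 41 held Tcrg-C1, and of the 21 kidney cells with Trgv2, 8 held Tcrg-C2, 8 held Tcrg-C4, and 4 held Tcrg-C1. Of the 14 kidney cells with Tcrg-V1, 7 held Tcrg-C4 and 2 each held Tcrg-C1 and Tcrg-C2. Tcrg-V1 (chr13:19339989-19340454) lies next to Tcrg-C4 (chr13:19344558-19352756) on the plus strand, and Trgv2 (chr13:19336573-19337167) lies on the minus strand, upstream of Tcrg-C2 (chr13:19304649-19307551).

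**Figure D2:**
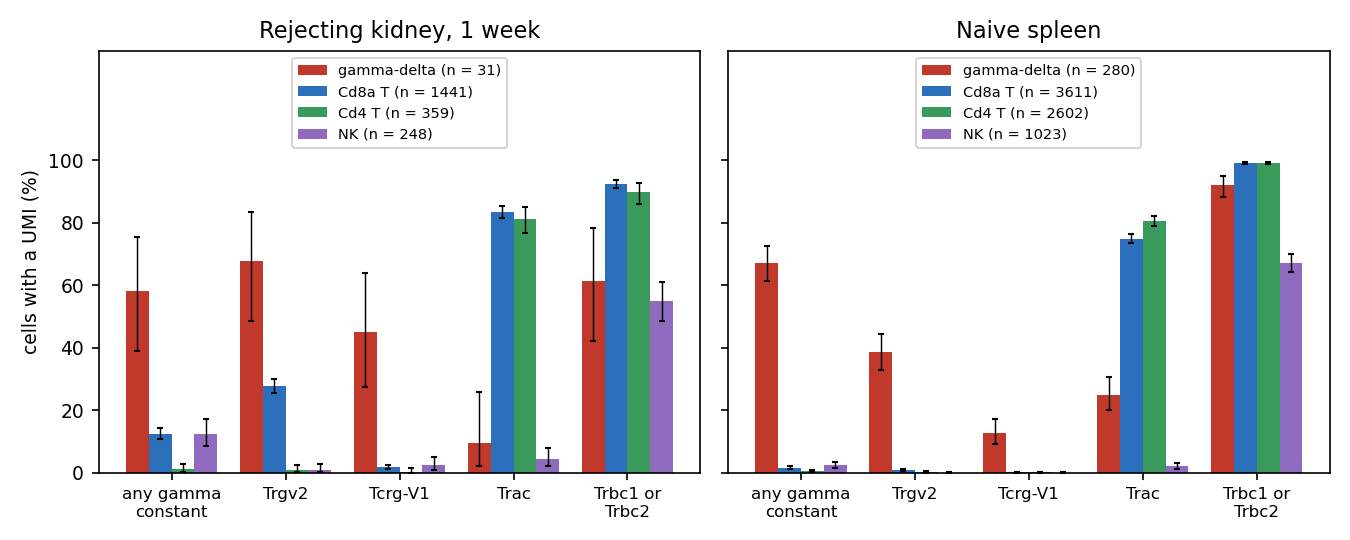
Percent of cells with at least 1 UMI (y axis) of any gamma constant gene, of the variable segments Trgv2 and Tcrg-V1, of Trac, and of Trbc1 or Trbc2, in gamma-delta cells, Cd8a T cells, Cd4 T cells, and NK cells of rejecting kidney (left) and naive spleen (right), with 95% Clopper-Pearson intervals, which cover counting error only. Gamma constant genes stood at 58.1% and 67.1% in gamma-delta cells, Trac at 9.68% and 25.0%, and the beta constant genes were found in most cells of each population.

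For comparisons of expression, UMIs were summed per library and population and scaled by plain totals to CPM, the counts per 1000000 UMIs of the sum. The gamma-delta sums held 16430 and 47982 UMIs in the kidney libraries, from 10 and 21 cells, and 122560 to 274157 in the spleen libraries, so that 1 UMI is 60.9 or 20.8 CPM in kidney and a gene at 0 in both kidney libraries lies under a limit of 46.6 CPM (3 UMIs over both). Kidney values rest on few molecules and are read accordingly. Libraries shared at most 0.396% of their barcodes. Scrublet called 0.00837% of kidney cells and no cell of spleen library 1 as doublets, which is too few for the call to have worked there, and none of the 311 cells in any library. Log2 differences are given with their standard error (SE), and genes were called at an adjusted p under 0.05 by the quasi-likelihood test of edgeR, adjusted over 11280 genes by the Benjamini-Hochberg method, with populations compared within libraries. Where a group held 1 to 3 UMIs of a gene, a ratio of pooled CPM with its 95% counting interval replaces the fitted difference, and where it held none, a bound against 3 UMIs. List medians are given a second time with genes at 0 held at that bound and genes under it in both groups left out, where this moved them by over 0.1. A gene could pass the filter on low counts through 1 population alone, so counts and medians over the genes of a list that passed describe those genes and not the whole list. The comparisons with Cd8a and with Cd4 T cells share the gamma-delta cells. All populations of both tissues were fitted together with a common estimate of spread, because kidney has few libraries. The p-values of kidney comparisons therefore rest also on the spread of spleen sums and of Cd8a and Cd4 T cell sums. In bulk sums of this kind, a gene carried by fewer cells and a gene with less RNA per cell cannot be told apart.

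In naive spleen, gamma-delta cells differed from Cd8a T cells in 1292 of 11280 genes (11.5% of the genes tested), 1115 higher (9.88%) and 177 lower (1.57%). With TMM factors the split was 355 higher and 430 lower and with DESeq2 408 and 288, and the median of all genes stood at 0.24 on the log2 scale with plain totals against -0.05 with TMM. Log2 differences below are to be read against that median. All 9 gamma and delta genes tested of 26 listed were higher, also with TMM. Trdv5, with no UMI in Cd8a or Cd4 T cells, passed the filter through gamma-delta cells alone. Counts of this list are therefore partly set by the filter. Tcrg-C4 stood at 185, 255, 182, 156, and 139 CPM in spleen libraries 1 to 5, against 0.963 to 4.97 CPM in Cd8a T cells (log2 difference 6.41 ± 0.25, edgeR adjusted p = 1.87e-46). Trac was lower, at 98.9, 125, 113, 67.4, and 147 CPM against 375 to 400.2 CPM (log2 difference -1.89 ± 0.12, edgeR adjusted p = 6.47e-28), and neither gene's ranges overlapped. Trbc1 gave 0.02 ± 0.06 (edgeR adjusted p = 0.909) and turned to -0.28 with TMM.

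Several genes of the IL-17 program were higher in spleen gamma-delta cells, at low levels. Of 11 tested of 18 listed, 8 were higher and 0 lower (7 higher with TMM), with a median log2 difference of 3.86 against 0.24 over all genes. At least Cd163l1 passed the filter through gamma-delta cells alone, where it was high. No direction of the list is therefore read from that count and median. Maf, a transcription factor of IL-17 and regulatory programs, stood at 61.8, 59.4, 25.5, 67.4, and 57.1 CPM in gamma-delta cells against 1.24 to 4.66 CPM in Cd8a T cells (log2 difference 4.08 ± 0.36, edgeR adjusted p = 2.22e-18). Zbtb16, which encodes PLZF, a factor of innate-like T cells, stood at 45.3, 29.7, 3.65, 25.3, and 8.16 CPM against 0 to 0.963 CPM (log2 difference 5.74 ± 0.69, edgeR adjusted p = 1.11e-11). In each spleen library both genes were above every Cd8a value. Cd163l1, a scavenger receptor found on IL-17 gamma-delta cells, stood at 49.4, 11.9, 25.5, 37.9, and 40.8 CPM against 1.35 to 2.47 CPM (log2 difference 4.04 ± 0.47, edgeR adjusted p = 5.37e-12), and the membrane protein gene Tmem176b gave 3.99 ± 0.56 (edgeR adjusted p = 4.81e-09). The cytokine genes themselves, Il17a and Il17f, had no UMI in any of the 311 cells. 

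The interferon and cytotoxic program and NK receptors were higher as well. Of 14 program genes, 9 were higher and 1 lower (7 and 2 with TMM), median 0.78 (second median 1.09). Ccl5, a chemokine of memory and cytotoxic T cells, read 3291, 3484, 4921, 4544, and 5467 CPM in gamma-delta cells, above the 663 to 1101 CPM of Cd8a T cells (log2 difference 2.29 ± 0.10, edgeR adjusted p = 4.49e-44). Il2rb, the IL-2 and IL-15 receptor beta chain, read 346, 427, 496, 295, and 408 CPM against 96.6 to 156 CPM (log2 difference 1.63 ± 0.11, edgeR adjusted p = 1.56e-25). The chemokine gene Xcl1 gave 2.40 ± 0.24 (edgeR adjusted p = 5.42e-15) and Ifng gave 3.37 ± 0.38 (edgeR adjusted p = 7.58e-13). Ranges of these 4 genes did not overlap between the populations. In contrast, the granzyme gene Gzmb was near its limit of detection, at 4.12, 0, 0, 0, and 8.16 CPM.
Of 15 NK receptor and adaptor genes tested, 11 were higher and none lower, with a median of 2.46 (10 higher with TMM and 8 with DESeq2). Klrc2, which encodes an NKG2 family receptor, stood at 132, 166, 128, 164, and 277 CPM against 6.75 to 22.7 CPM (log2 difference 3.49 ± 0.21, edgeR adjusted p = 2.30e-29). Klrk1, which encodes the activating receptor NKG2D, stood at 94.7, 131, 149.5, 169, and 131 CPM against 19.9 to 28.5 CPM (log2 difference 2.43 ± 0.18, edgeR adjusted p = 1.35e-23). Every gamma-delta library exceeded every Cd8a library for both. Klrc1, the inhibitory receptor NKG2A, and Cd160 gave 3.44 ± 0.29 and 2.24 ± 0.17 (edgeR adjusted p = 1.01e-19 and 9.66e-23). The summed NK marker level was 107 to 310.0 CPM in spleen gamma-delta cells and 11763 to 14211 CPM in NK cells, with the NK markers Klra8 and Klra4 at 0 in gamma-delta cells. The part of NK cells in these values was not tested.

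Genes of naive and recirculating T cells split in direction in spleen gamma-delta cells with plain totals only. Of 10, 3 were higher and 5 lower, with a median of -0.22. With TMM 0 were higher and 6 lower, and with DESeq2 0 and 5. Dapl1, a gene of naive T cells, stood at 140.1, 113, 131, 71.7, and 163 CPM against 364 to 431 CPM (log2 difference -1.68 ± 0.11, edgeR adjusted p = 1.56e-25). Lef1, a transcription factor of naive T cells, stood at 198, 427, 226, 228, and 220.3 CPM against 358 to 482 CPM (log2 difference -0.69 ± 0.10, edgeR adjusted p = 5.31e-09), with 1 library inside the Cd8a range. Ccr7, the lymph node homing receptor, fell by 0.96 ± 0.14 on the log2 scale (edgeR adjusted p = 1.33e-08).
Of 12 checkpoint genes, 4 were higher than in Cd8a T cells (3 with TMM), median 0.62 (second median 0.82). Pdcd1, which encodes PD-1, stood at 16.5, 23.7, 18.2, 33.7, and 8.16 CPM against 0 to 1.93 CPM (log2 difference 4.72 ± 0.55, edgeR adjusted p = 4.94e-12), and Tox, a factor of persistently stimulated T cells, gave 1.09 ± 0.16 (edgeR adjusted p = 1.54e-08). Of the 11 residency and chemokine receptor genes, 8 were higher and none lower (5 with TMM), with a median of 1.43, among them Itga1 (CD49a, a collagen receptor of resident lymphocytes) at 3.69 ± 0.49 and Rgs1 at 1.61 ± 0.19 (edgeR adjusted p = 5.42e-10 and 1.45e-11). The cell cycle list gave 1 higher and 3 lower of 10, and of 7 cytokine and growth factor genes 1 was higher, Ltb at 0.24 ± 0.06 (edgeR adjusted p = 0.0023), which was -0.057 and not called with TMM.

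Regulators of innate lymphocyte development were mostly higher in spleen gamma-delta cells. Of 12, 7 were higher and 0 lower (with TMM 7 and 2), median 1.14. Ikzf2 (chr1:69531214-69687245), which encodes the Ikaros family factor Helios, stood at 379, 576, 412, 325, and 489.6 CPM in gamma-delta cells against 50.5 to 61.1 CPM in Cd8a T cells and 94.0 to 184 CPM in Cd4 T cells (log2 difference 2.95 ± 0.12, edgeR adjusted p = 3.26e-44 against Cd8a). Sox4, an early lymphocyte factor, stood at 57.7, 226, 120.4, 118, and 40.8 CPM against 6.30 to 15.7 CPM (log2 difference 3.35 ± 0.23, edgeR adjusted p = 1.14e-25). Id3, an inhibitor of E proteins induced by T cell receptor signals, stood at 136, 267, 182, 181, and 220.3 CPM against 55.3 to 91.5 CPM (log2 difference 1.45 ± 0.13, edgeR adjusted p = 2.02e-17). All 3 were higher in each gamma-delta library than in any Cd8a library. Cd7, an immunoglobulin-family surface protein of T and NK cells, gave 1.67 ± 0.15 (edgeR adjusted p = 1.00e-18). Outside the lists, S100a4, a calcium-binding protein gene of effector and memory cells, gave 2.75 ± 0.22 (edgeR adjusted p = 2.84e-21). Npc2, a sterol transfer protein gene, was lower at -1.25 ± 0.10 (edgeR adjusted p = 5.54e-22), as was Inpp4b, a lipid phosphatase gene, at -1.08 ± 0.16 (edgeR adjusted p = 1.62e-08). The hemoglobin gene Hbb-bs was called lower, but it was 2.02 to 617 CPM across Cd8a libraries and its call ended without spleen library 1.

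Against spleen Cd4 T cells, 1100 genes differed (9.75%), 826 higher (7.32%) and 274 lower (2.43%), 492 and 529 with TMM, and 511 and 333 with DESeq2. The cytotoxic program (11 higher and 0 lower of 14, median 2.81) and NK receptors (15 and 0 of 15, median 4.48, second median 3.94) were mostly higher, beside a median of 0.13 over all genes. Nkg7, a cytotoxic granule protein gene, stood at 585, 694, 660.2, 590.1, and 857 CPM against 18.04 to 44.9 CPM in Cd4 T cells (log2 difference 4.37 ± 0.12, edgeR adjusted p = 8.67e-66). Ly6c2, a surface antigen of memory CD8+ T cells and monocytes, stood at 494, 522, 642, 527, and 399.8 CPM against 2.67 to 22.7 CPM (log2 difference 5.14 ± 0.14, edgeR adjusted p = 1.93e-63), and 328 to 469 CPM in Cd8a T cells. Neither gene overlapped between gamma-delta and Cd4 T cells. Klrd1, the CD94 partner of NKG2 receptors, gave 3.49 ± 0.14, Eomes, a transcription factor of NK and memory CD8+ T cells, gave 3.96 ± 0.25, and Ctsw, a granule protease gene, gave 3.19 ± 0.16 (edgeR adjusted p = 4.98e-46, 2.99e-29, and 8.67e-38).
The IL-17 list stood at 8 higher and 0 lower of 11 (TMM 8 and 1), while Cd4 T cells held 49.2 to 98.5 CPM of Maf and no UMI of Cd163l1. That count is partly set by the filter too, so no direction of the list is read from it. Of residency and chemokine receptors, 9 of 11 were higher, with Cxcr6 at 2.64 ± 0.25 (edgeR adjusted p = 1.05e-16). Lower than in Cd4 T cells were the helper genes Igfbp4, at -2.40 ± 0.18, Il6ra, the IL-6 receptor, at -2.13 ± 0.20, and Izumo1r, folate receptor 4, at -1.96 ± 0.22 (edgeR adjusted p = 1.95e-22, 6.84e-17, and 1.26e-12), and Tnfrsf4, the costimulatory receptor OX40, at -3.00 ± 0.54 (edgeR adjusted p = 5.40e-06). Of 10 cell cycle genes 7 were lower and 0 higher, of 10 naive genes 3 higher and 5 lower, of 12 checkpoint genes 2 higher and 1 lower (with TMM 0 and 3), of 12 innate regulators 6 higher and 2 lower, of 9 gamma and delta genes 9 higher, and of the alpha-beta constant genes 2 lower, Trac and Trbc2. Of 7 cytokine genes 1 was higher, Ltb, whose call TMM ended.

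In rejecting kidney, the 31 gamma-delta cells differed from Cd8a T cells in 159 genes (1.41%), 109 higher (0.966%) and 50 lower (0.443%), and with TMM in 58 higher and 379 lower. The median of all genes was -0.24, and -0.78 with TMM. Over the 2524 genes of at least 100 CPM in either population it was 0.087, and -0.46 with TMM. Without the second library, which holds 21 of the cells, 20 genes were called, 17 of them among the 159, and of the genes named for this comparison Trdv5, Klra5, Klra7, and Clnk kept their call. Eomes, Gzmb, Klra1, Klri1, Inhba, Klf12, Sulf2, Gas7, and Pdcd1 were too sparse in the first library alone to be given a value. With no library term 49 genes were called.
Receptor genes again set the cells apart. Tcrg-V1 stood at 183 and 521 CPM in gamma-delta cells against 5.84 and 5.73 CPM in Cd8a T cells (log2 difference 6.10 ± 0.60, edgeR adjusted p = 1.58e-14), and Tcrg-C4 at 243 and 333 CPM against 17.5 and 10.0 CPM (log2 difference 4.66 ± 0.58, edgeR adjusted p = 8.15e-10). Trac stood at 243 and 0 CPM against 915 and 835 CPM (log2 difference -3.80 ± 0.45, edgeR adjusted p = 7.88e-11). The libraries of the 2 populations did not overlap for these genes. Of 9 gamma and delta genes tested 4 were higher, and Trgv2 was among them at 2.09 ± 0.30 (edgeR adjusted p = 2.22e-07), a call lost with DESeq2 and with no library term, beside 434 and 115 CPM in Cd8a T cells. DESeq2 called 2 of the list higher. Trdv5 came from 1 cell.

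The Ly49 genes Klra1, Klra5, and Klra7, the receptor gene Cd160, and the adaptor gene Tyrobp were higher in kidney gamma-delta than in kidney Cd8a T cells, while the NKG2 family genes were not called. Of 15 tested, 5 were higher and none lower, also with TMM, and 3 higher with DESeq2, and the list's median was 2.17. Klra5 (chr6:129898996-129917650), which encodes the inhibitory receptor Ly49E, stood at 548 and 750.3 CPM in gamma-delta cells, 40.3 and 5.01 CPM in Cd8a T cells, 3.53 and 0 CPM in Cd4 T cells, and 139 and 169.8 CPM in NK cells (log2 difference 5.53 ± 0.48, edgeR adjusted p = 6.47e-17). Its 2 gamma-delta values were above those of each other population, NK cells included, whereas in spleen it was at 0, 0, 0, 12.6, and 0 CPM. With DESeq2 the difference was 5.98 and not called (DESeq2 adjusted p = 0.832). Klra7, which encodes Ly49G, stood at 243 and 208 CPM against 5.25 and 7.87 CPM in Cd8a T cells and 189.9 and 116 CPM in NK cells (log2 difference 4.93 ± 0.66, edgeR adjusted p = 1.73e-08). Klra1, which encodes Ly49A, stood at 60.9 and 125 CPM against 0.584 and 0.716 CPM (163-fold, counting interval 37.3 to 978, edgeR adjusted p = 2.42e-05), and Cd160 at 365 and 271 CPM against 45.5 and 34.0 CPM (log2 difference 3.01 ± 0.48, edgeR adjusted p = 2.94e-06). For all 4 genes the lower gamma-delta value exceeded the higher Cd8a value. Tyrobp, the adaptor DAP12 of activating receptors, stood at 426 and 688 CPM against 131 and 140.3 CPM (log2 difference 2.17 ± 0.39, edgeR adjusted p = 6.48e-05), and myeloid cells carry it too.
Klra genes form a family of similar copies whose content differs between mouse strains, so reads can be split or misplaced among them, and no UMI of Klra8 was found in kidney NK cells. How strain and copies bear on these values was not tested. Clnk (chr5:38706462-38876812), which encodes an adaptor of immunoreceptor signaling, stood at 426 and 459 CPM in gamma-delta cells, near the 421 and 358 CPM of NK cells, and at 8.17 and 2.51 CPM in Cd8a T cells (log2 difference 6.65 ± 0.63, edgeR adjusted p = 1.04e-14). The lectin-like receptor gene Klri1, at 0 and 229 CPM against 0 and 0.716 CPM, and Inhba, the activin A subunit, at 0 and 250.1 CPM against 13.4 and 2.51 CPM, were read in gamma-delta cells of the second library only (edgeR adjusted p = 2.02e-07 and 2.42e-05). Klri1 was too low in kidney Cd8a T cells to pass the filter on low counts through them, so its p-value is no separate support for the difference. The calls of Clnk, Klri1, and Inhba were lost with DESeq2. Sulf2, a heparan sulfate 6-O-endosulfatase gene, and Klf12, a repressor of the Kruppel-like family, gave 5.19 ± 1.06 and 4.92 ± 0.75 (edgeR adjusted p = 6.53e-04 and 7.81e-07), and NK cells held 78.7 and 141 CPM of Sulf2 and 171 and 202 CPM of Klf12.

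NK cells were set beside these results because the genes are theirs too. The NK marker sum was 487 and 584 CPM in the kidney gamma-delta libraries, 5664 to 7020 CPM in NK cells, and 74.1 to 215 CPM in Cd8a T cells. Over both libraries 5 of 7 summed markers were detected. Gzma, with Eomes at 60.9 and 125 CPM, made up all of the sum in the first library and most in the second. The cytotoxic list holds both genes. Klra8 and Klra4 were at 0, but kidney NK cells held 0 and 4 UMIs of them. Klra4 stood there at 8.12 CPM, under the gamma-delta limit of 46.6 CPM, so these zeros cannot separate the populations. Gzma, an NK and T cell granzyme, was 426 and 313 CPM in gamma-delta and 4858 and 6366 CPM in NK cells, and Prf1, perforin, 0 and 83.4 against 898 and 892 CPM. Klra5 was higher in gamma-delta than in NK cells, while Gzma was lower. The part of NK cells or their free RNA in the receptor values was not tested.

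**Figure D3:**
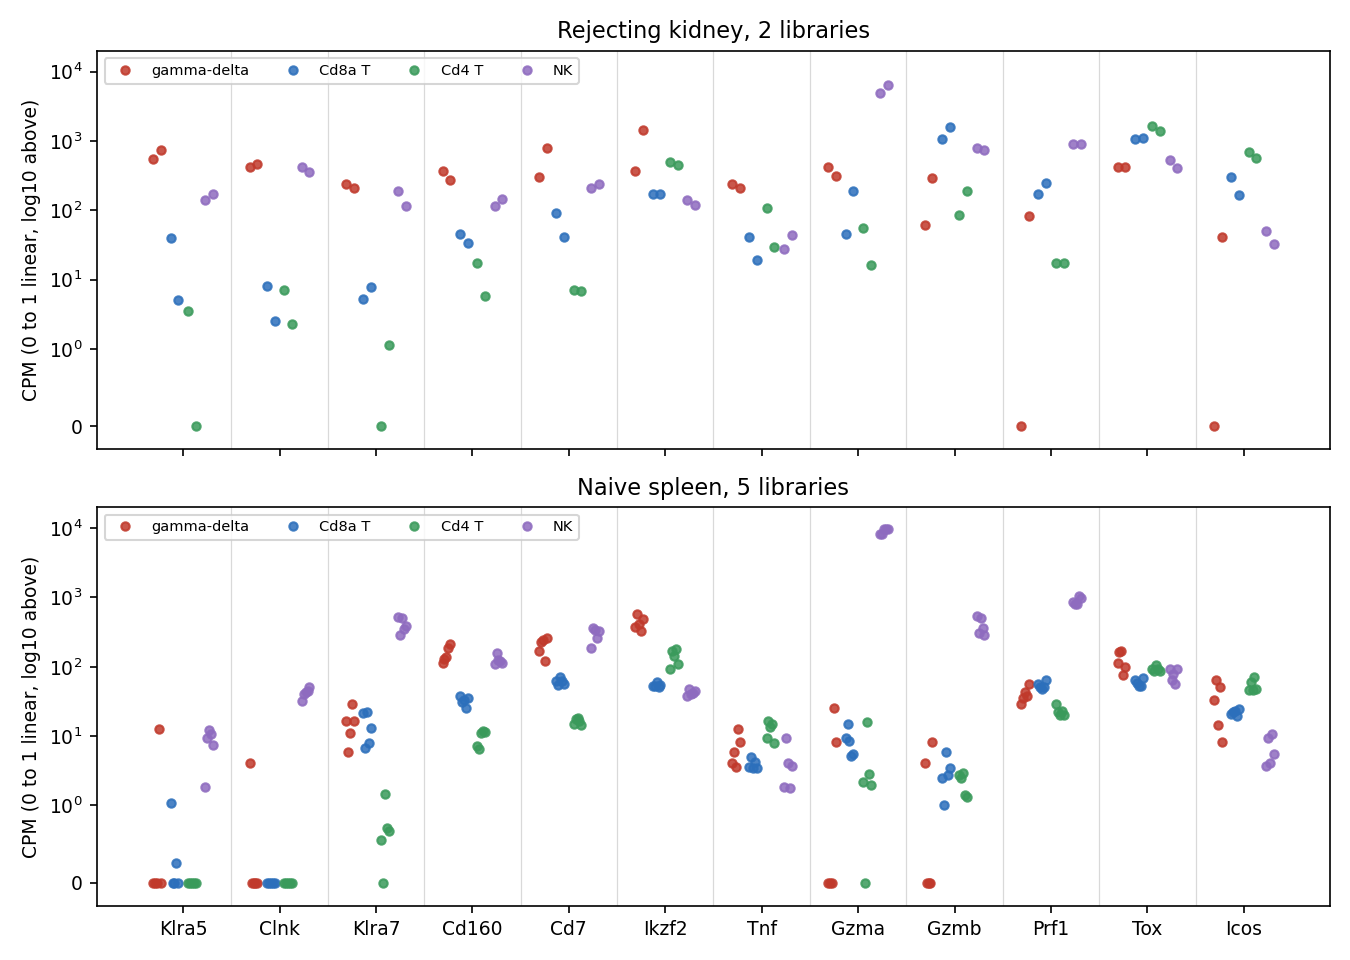
CPM per library (y axis, linear from 0 to 1 and log10 above) of 12 genes in gamma-delta cells, Cd8a T cells, Cd4 T cells, and NK cells of rejecting kidney (top, 2 libraries) and naive spleen (bottom, 5 libraries), 1 point per library. In kidney, Klra5 stood at 548 and 750.3 CPM in gamma-delta cells against 40.3 and 5.01 CPM in Cd8a T cells, Gzmb at 60.9 and 292 against 1057 and 1612 CPM, and Tox at 426 and 417 against 1070.0 and 1105 CPM.

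Of 14 cytotoxic genes in kidney, 2 were higher than in Cd8a T cells and 1 lower, and 0 and 3 with TMM, median 0.62 (second median 0.88). Gzmb, granzyme B, stood at 60.9 and 292 CPM in gamma-delta cells and 1057 and 1612 CPM in Cd8a T cells, which did not overlap (log2 difference -2.67 ± 0.28, edgeR adjusted p = 1.78e-13). Gzma stood at 426 and 313 CPM against 44.9 and 192 CPM. Ccl5 and Eomes were called higher, at 1.38 ± 0.37 and 2.77 ± 0.80 (edgeR adjusted p = 0.027 and 0.0498), calls lost with TMM and with no library term. The inflammatory cytokine gene Tnf stood at 243 and 208 CPM against 40.9 and 19.3 CPM (log2 difference 3.15 ± 0.55, edgeR adjusted p = 2.98e-05) and was the only called gene of 7 cytokine genes.
Of 12 checkpoint genes, 3 were lower in kidney gamma-delta than in kidney Cd8a T cells and none higher (7 lower with TMM and 1 with DESeq2), median -1.75 (second median -1.40). Tox stood at 426 and 417 CPM against 1070.0 and 1105 CPM (log2 difference -1.37 ± 0.26, edgeR adjusted p = 1.36e-04), and Pdcd1 at 122 and 208 CPM against 538 and 461 CPM (log2 difference -1.40 ± 0.39, edgeR adjusted p = 0.0361). Neither overlapped, though the Pdcd1 call was lost with DESeq2, with no library term, without the first library, and in cells without a Trac UMI. Icos, a costimulatory receptor gene with 2 UMIs in gamma-delta cells, was lower than in Cd8a T cells (7.06-fold, counting interval 1.95 to 58.4, edgeR adjusted p = 0.0416), and its call was lost in the same alternatives and without the second library. Cd28, which encodes the main costimulatory receptor of T cells, had no UMI in the 31 kidney cells, at least 3.48-fold lower than the 162 CPM of Cd8a T cells, whereas spleen gamma-delta cells held 144, 154, 201, 173, and 114 CPM of it. The checkpoint gene Havcr2 (TIM-3) also had no UMI, at least 2.19-fold lower.
Ikzf2 and Cd7 were again higher, as 2 of 12 innate regulators, with Cd5, a brake on T cell receptor signals, lower on 1 UMI (edgeR adjusted p = 0.0498). Ikzf2 stood at 365 and 1417 CPM against 172 and 174 CPM (log2 difference 2.71 ± 0.28, edgeR adjusted p = 7.52e-14) and Cd7 at 304 and 792 CPM against 90.5 and 40.8 CPM (log2 difference 3.58 ± 0.35, edgeR adjusted p = 1.31e-14), without overlap, and Sox4 and Id3 had no UMI in kidney gamma-delta cells. Cd226, the activating receptor DNAM-1, stood at 730.4 and 500.2 CPM against 133 and 93.1 CPM (log2 difference 2.45 ± 0.31, edgeR adjusted p = 2.65e-09). Of the naive genes 1 of 10 was higher, Satb1, a chromatin organizer, at 1.67 ± 0.43 (edgeR adjusted p = 0.0163), a call lost with TMM, with no library term, and without either library. None of 11 IL-17 genes, 11 residency genes, and 10 cell cycle genes tested was called in edgeR, where 2, 4, and 4 had an unadjusted p under 0.05. Over all genes, 1022 of 11280 had such a p in this comparison. DESeq2 called 2 IL-17 genes higher, Zbtb16 and Tmem176a, and none of the residency or cell cycle lists, and TMM called 5 cell cycle genes and 1 residency gene lower. Zbtb16 stood at 122 and 20.8 CPM against 1.75 and 1.07 CPM (35.0-fold, counting interval 5.66 to 164, edgeR adjusted p = 0.0907).

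Against kidney Cd4 T cells, 208 genes differed (1.84%), 139 higher (1.23%) and 69 lower (0.612%), and 80 and 347 with TMM. Of NK receptor genes, 8 of 15 were higher than in Cd4 T cells and none lower, median 4.80 (second median 4.64) beside -0.23 over all genes. Over all genes of at least 100 CPM in either population the median was 0.057, and -0.45 with TMM. The cytotoxic list gave 6 higher of 14, with Xcl1 at 304 and 354 CPM against 38.9 and 18.4 CPM (log2 difference 3.85 ± 0.62, edgeR adjusted p = 2.47e-06) and Ctsw at 1.95 ± 0.32 (edgeR adjusted p = 4.76e-06). Itga1 stood at 426 and 584 CPM against 45.9 and 20.7 CPM (log2 difference 4.32 ± 0.42, edgeR adjusted p = 4.49e-15), and Cd8a T cells, at 399 and 226 CPM, were close to gamma-delta cells for it. Runx3, a transcription factor of cytotoxic lineages, gave 1.89 ± 0.31 and Cd7 gave 6.55 ± 0.50 (edgeR adjusted p = 4.06e-06 and 2.06e-21).
Checkpoint and costimulatory genes were lower, 4 of 12, median -1.82. Icos stood at 0 and 41.7 CPM against 689 and 564 CPM (19.1-fold, counting interval 5.28 to 158, edgeR adjusted p = 1.42e-07) and Ctla4, an inhibitory receptor gene, at 60.9 and 41.7 CPM against 707 and 511 CPM (12.0-fold, counting interval 4.09 to 58.3, edgeR adjusted p = 5.45e-07). Tox was lower as well, at -1.81 ± 0.25 (edgeR adjusted p = 1.29e-08). No UMI was found of Cd28, at least 6.42-fold lower than in Cd4 T cells, of Tnfrsf4, at least 5.06-fold lower, or of Tbc1d4, a GTPase-activating protein gene, at least 7.20-fold lower. Maf was called lower, at -2.32 ± 0.52 (edgeR adjusted p = 0.00208), a call lost with DESeq2 and with no library term, and it stood at 365 and 0 CPM, with the second library at 0. Of 9 gamma and delta genes 6 were higher, of the alpha-beta constant genes 2 lower, of 12 innate regulators 4 higher and 1 lower, of residency genes 1 higher and 1 lower, and of cytokine genes 1 higher, Tnf, a call lost with TMM. No naive or cell cycle gene was called in edgeR with plain totals or in DESeq2 (with TMM 1 and 2 were lower), with 2 and 1 at an unadjusted p under 0.05. Over all genes, 1135 of 11280 had such a p against kidney Cd4 T cells. Without the second library 35 genes were called, and of the named genes Trgv2, Ccl5, Klra5, Klra7, Klra3, Cd160, Tox, Icos, Itga1, Cd7, and Clnk kept their call, while Ikzf2 turned to -0.47.

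The difference between gamma-delta and Cd8a T cells was not the same in both tissues. Its change from spleen to kidney, tested as an interaction, was called for 179 genes (1.59%), 54 of them higher in kidney (0.479%) and 125 lower (1.11%), 27 and 250 with TMM, and 83 and 47 with DESeq2. The median over all genes was -0.53, -0.78 with TMM and -0.15 with DESeq2. Over genes of at least 100 CPM in either kidney population it was -0.17, -0.42 with TMM and -0.075 with DESeq2. Klra7 had no difference called in spleen (16.5, 5.94, 10.9, 29.5, and 16.3 CPM against 6.75 to 22.5 CPM) and stood apart in kidney (interaction 4.83 ± 0.72, edgeR adjusted p = 4.69e-07). Klra1, with 3 UMIs in kidney Cd8a T cells, and Cd226 changed in the same direction, Cd226 by 2.33 ± 0.33 (edgeR adjusted p = 9.16e-04 for Klra1 and 1.33e-07 for Cd226), and so did Cd7, at 1.91 ± 0.33 (edgeR adjusted p = 2.96e-05), and Satb1, at 2.05 ± 0.45 (edgeR adjusted p = 0.00171). The calls of Klra1, Cd7, and Satb1 were lost with no library term.
In the other direction, several genes that set gamma-delta cells above Cd8a T cells in spleen did so less in kidney. Pdcd1 went from 4.72 ± 0.55 in spleen to -1.40 ± 0.39 in kidney (interaction -6.13 ± 0.66, edgeR adjusted p = 1.68e-12), with Cd8a T cells at 0 to 1.93 CPM in spleen and 538 and 461 CPM in kidney. Tox went from 1.09 ± 0.16 to -1.37 ± 0.26 (interaction -2.46 ± 0.29, edgeR adjusted p = 9.30e-11). Ifng had 60.9 and 104 CPM in kidney gamma-delta cells and 155 and 176 CPM in kidney Cd8a T cells (interaction -4.23 ± 0.57, edgeR adjusted p = 1.94e-08). Klrc1 and Itga1 gave interactions of -3.56 ± 0.47 and -2.70 ± 0.51 (edgeR adjusted p = 6.83e-09 and 1.71e-04). Trgv2 did so too, at -3.60 ± 0.34 (edgeR adjusted p = 4.12e-15), beside 434 and 115 CPM in kidney and 0.337 to 5.13 CPM in spleen Cd8a T cells, and lost the call with DESeq2. Without the second kidney library 36 genes were called, and Trgv2, Tcrg-C2, Klrc1, Klra7, Tox, Itga1, Cd226, Alcam, and Focad kept their call among the named genes. By list, 4 of 9 gamma and delta genes, 4 of 14 cytotoxic, 4 of 12 checkpoint, 2 of 11 residency, and 1 of 11 IL-17 genes were lower, NK receptors split into 2 higher and 4 lower of 15, of the alpha-beta constant genes 1 was lower, and 1 naive gene and 1 innate regulator were higher. With DESeq2 fewer were called lower, 1 gamma and delta gene, 2 cytotoxic genes beside 1 higher, 2 checkpoint genes, 1 residency gene, 1 NK receptor gene, and none of the IL-17 or alpha-beta constant genes, and no innate regulator was called higher. No cytokine or cell cycle gene was called in edgeR with plain totals or in DESeq2 (with TMM 1 cell cycle gene was lower), with 2 and 4 at an unadjusted p under 0.05. Over all genes, 1176 of 11280 had such a p in the interaction.

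**Figure D4:**
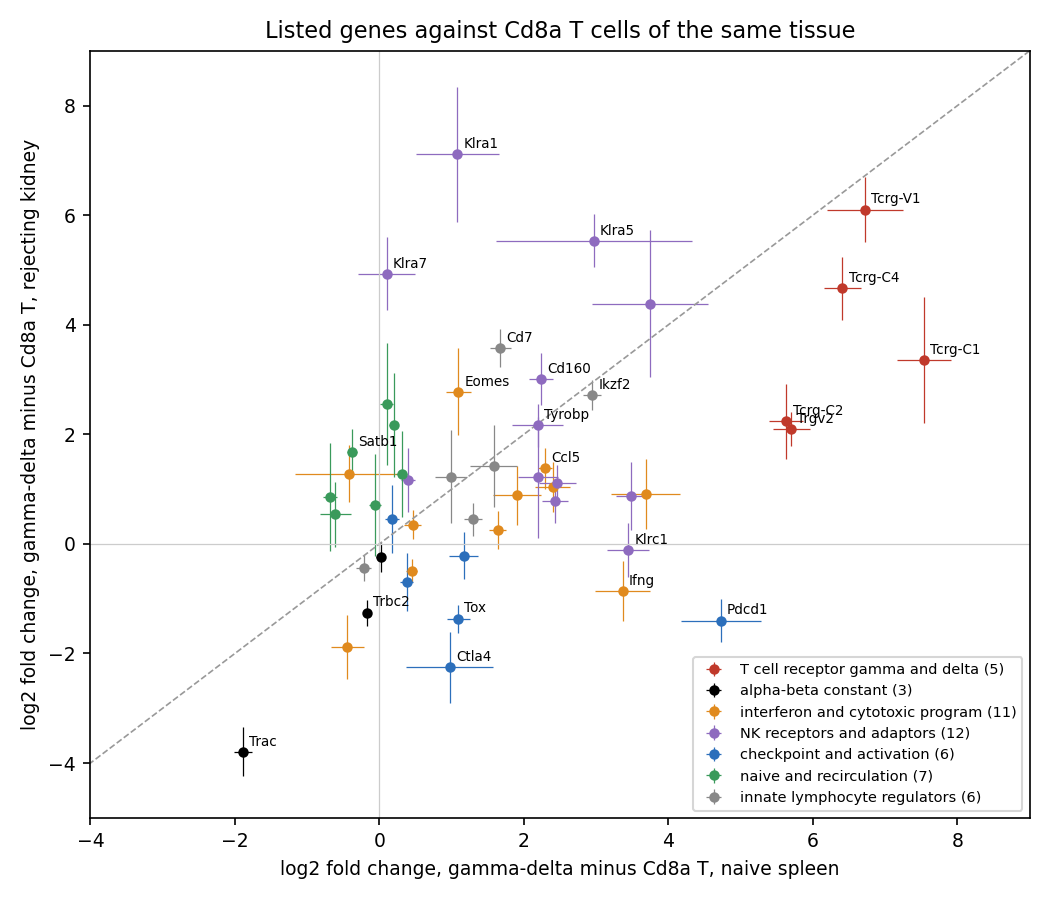
Log2 difference between gamma-delta and Cd8a T cells in naive spleen (x axis) and rejecting kidney (y axis) for 50 genes of 7 lists with at least 3 UMIs in both populations of both tissues, 1 point per gene colored by list, with bars of 1 SE and a dashed line of equal difference. Klra7 lies far above the line, at 4.93 in kidney, and Pdcd1 far below it, at 4.72 in spleen and -1.40 in kidney.

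Kidney and spleen gamma-delta cells were also compared directly, over 3820 genes, of which 789 were called (20.7%), 590 higher in kidney (15.4%) and 199 lower (5.21%), 372 and 348 with TMM, and 322 and 226 with DESeq2. Naive and recirculation genes were lower in kidney, 8 of 10 (9 with TMM), with a median of -2.82 (second median -2.56) against 0.29 over all genes and -0.17 with TMM. Il7r, the survival receptor for IL-7, stood at 60.9 and 20.8 CPM in kidney and 832, 949.7, 719, 1033, and 669 CPM in spleen (27.3-fold, counting interval 7.54 to 226, edgeR adjusted p = 1.07e-07). Tcf7, a factor of naive and memory T cells, stood at 60.9 and 83.4 CPM against 548, 599, 478, 443, and 449 CPM (log2 difference -2.69 ± 0.46, edgeR adjusted p = 4.35e-05), and Klf2, a factor that maintains recirculation, gave -3.59 ± 0.58 (edgeR adjusted p = 2.09e-05). The tissues did not overlap for Il7r and Tcf7.
Of the 11 cytotoxic genes that passed the filter, 6 were higher in kidney (4 with TMM and 3 with DESeq2) and 1 lower, Ccl5. At least Gzmb, Gzma, Fasl, and Ifng were too low in spleen to pass. They entered through kidney, where they were higher, so the count of this list is partly set by the filter. Gzmb stood at 60.9 and 292 CPM against 4.12, 0, 0, 0, and 8.16 CPM (122-fold, counting interval 28.3 to 1097, edgeR adjusted p = 2.96e-07) and Gzma at 426 and 313 CPM against 0, 0, 0, 25.3, and 8.16 CPM (log2 difference 5.54 ± 0.70, edgeR adjusted p = 3.84e-07). Neither gene overlapped between the tissues. Itga1 (4.62 ± 0.43), Rgs1 (2.62 ± 0.37), Tnf (4.87 ± 0.65), and the chemokine gene Ccl4 (3.92 ± 0.67) were higher too (edgeR adjusted p = 1.15e-09, 2.01e-06, 8.11e-07, and 4.38e-05), as were Pdcd1 and Tox (3.08 ± 0.61 and 1.73 ± 0.39, edgeR adjusted p = 3.20e-04 and 0.00134). Spleen gamma-delta cells held at most 37.1 CPM of Itga1 and 33.7 CPM of Ccl4 and of Pdcd1. These genes and Tnf entered through kidney, where they were high. The residency, cytokine, and checkpoint counts below are therefore partly set by the filter as well.
NK receptors gave 5 higher of 11 (5 higher and 1 lower with TMM), Klra5 among them (243-fold, counting interval 78.1 to 1224, edgeR adjusted p = 1.75e-11). Klra5 passed the filter through kidney alone, where it was high, so no direction of the list is read from that count. Of 10 cell cycle genes 3 passed the filter and were called, Mki67, Top2a, and Hmgb2. Mki67 and Top2a passed through kidney alone, where they were high, so the same holds for this count. Top2a, the DNA topoisomerase of dividing cells, stood at 183 and 938 CPM in kidney and 8.24, 0, 10.9, 4.22, and 8.16 CPM in spleen (log2 difference 6.57 ± 0.52, edgeR adjusted p = 6.07e-11). Trgv2 and Tcrg-V1 gave 2.34 ± 0.29 and 3.22 ± 0.46 (edgeR adjusted p = 2.05e-07 and 2.65e-06). Ikzf2 gave 1.35 ± 0.28 (edgeR adjusted p = 5.93e-04) but rested on the second kidney library, without which it was -0.23. Without that library 236 genes were called in all, and the calls of Tcrg-V1, Klf2, Tox, Ccl5, Cd7, and Runx3 were among those lost. Of the remaining lists, residency genes gave 3 higher of 7, innate regulators 3 higher and 3 lower of 9, checkpoint genes 2 and 2 of 5, cytokines 2 of 4, gamma and delta genes 2 of 5, the alpha-beta constant genes 1 lower, Trbc2, and the 1 IL-17 gene tested, Maf, 0.85 ± 0.85 (edgeR adjusted p = 0.542).

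The differences between tissues moved with intron length, in gamma-delta and in Cd8a T cells alike, and marker genes of other cells were read in kidney gamma-delta cells. Over 10 groups of genes by total intron length, the median log2 difference of gamma-delta cells went from -0.43 for the shortest (median 0.569 kb) to 1.61 for the longest (185 kb), and that of Cd8a T cells from -0.26 to 1.41. Of the genes called higher in kidney, 200 lay in the longest group and 30 in the shortest, and of those called lower, 1 and 89. Lengths were found for 3801 of 3820 genes (99.5%). Cxcl9, a chemokine made by macrophages under IFN-gamma, stood at 1522 and 479 CPM in kidney gamma-delta cells and had no UMI in spleen gamma-delta cells, at least 259.6-fold lower. Kidney Cd8a T cells held 241 and 370.1 CPM of it and kidney Cd4 T cells 685 and 783 CPM. Myeloid markers summed to 2252 to 2438 CPM in kidney gamma-delta cells (8 of 9 detected, S100a8 at 0), 1311 to 1370 CPM in Cd8a, 2384 to 3102 CPM in Cd4 T, and 2797 to 3728 CPM in NK cells of kidney, and 113 to 680 CPM in spleen gamma-delta cells. The B cell list, which holds the class II genes Cd74 and H2-Aa, summed to 2069 to 2626 CPM in kidney gamma-delta cells (4 of 5 detected, Ms4a1 at 0), 1303 to 1726 CPM in Cd8a, 2508 to 3942 CPM in Cd4 T, and 1630.1 to 1738 CPM in NK cells of kidney, and 279 to 441 CPM in spleen gamma-delta cells. The myeloid list holds Tyrobp, also an adaptor of NK receptors. Markers of platelets and erythroid cells, and the 4 of 10 kidney parenchyma markers counted in both tissues, were at 0 in kidney gamma-delta cells. Innate lymphoid cell markers were 104 to 426 CPM in kidney (Il1rl1, Kit, and Arg1 at 0) and 759 to 1121 CPM in spleen (Il1rl1 and Arg1 at 0). Most of the spleen sum was Il7r, at 669 to 1033 CPM, which the naive list holds too. Cd8a and Cd4 T cells had 683 to 762 and 663 to 746 CPM of these markers in spleen, and 138 to 222 and 211 to 488 CPM in kidney. Trim12a, a tripartite motif family gene, was at 0 in kidney gamma-delta cells and at 0.584 and 0.358 CPM in kidney Cd8a T cells, against 188 to 267 and 161 to 196 CPM in spleen. The part of intron length, free RNA, and strain in the differences between tissues was not tested.

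**Figure D5:**
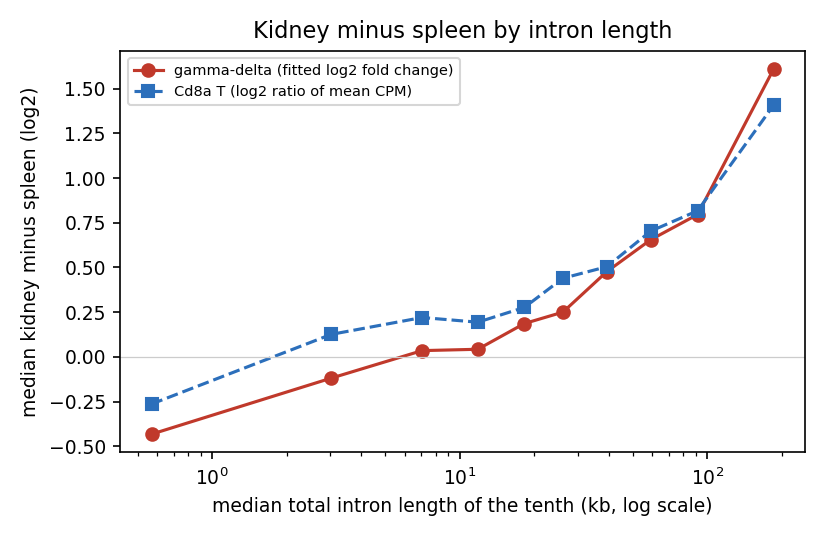
Median log2 difference between kidney and spleen (y axis) in 10 groups of genes by total intron length (x axis, median of the group in kb, log scale), for gamma-delta cells (circles, fitted differences) and Cd8a T cells (squares, ratios of mean CPM). The medians of both populations rise with intron length, to 1.61 and 1.41 in the longest group.

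Spleen gamma-delta cells differed among themselves in these lists, whereas nearly all kidney cells had the cytotoxic list. With each cell thinned to 1000 UMIs and a list counted as present at 2 or more of its genes, 55.2% of 279 spleen cells had the interferon and cytotoxic list (45.7%, 53.3%, 60.0%, 54.5%, and 66.7% by library), against 21.1% of Cd8a T cells, 2.92% of Cd4 T cells, and 99.6% of NK cells. The IL-17 list was present in 13 of the 279 cells (4.66%), from 2.22% to 10.9% by library, against 0.0554% of Cd8a and 0.269% of Cd4 T cells. A single cell had both lists and 113 cells (40.5%) had neither. Without thinning, 23 of 280 cells had the IL-17 list, and 9 of these also had the cytotoxic list, against 196 of the other 257 cells.
NK receptors were present in 19.4% of thinned spleen cells (Cd8a T cells 3.46%, NK cells 99.9%), naive genes in 78.9% (84.2% of Cd8a and 79.9% of Cd4 T cells), and checkpoint genes in 17.6% (9.72% and 13.6%). In kidney, 29 of 31 thinned cells (93.5%) had the cytotoxic list, beside 82.9% of Cd8a T cells, and 51.6% had NK receptors, beside 18.9%, and 87.1% beside 53.2% without thinning. The checkpoint list was present in 19.4% of kidney gamma-delta cells, 64.7% of Cd8a T cells, and 75.8% of Cd4 T cells. Thinned kidney NK cells had the cytotoxic list in 95.2%, NK receptors in 84.7%, and the checkpoint list in 24.6% of cells. The cytotoxic and checkpoint shares of kidney gamma-delta cells thus lay near those of NK cells. Naive genes were present in 40.0% and 9.52% of gamma-delta cells in the 2 kidney libraries, and the cell cycle list in 0% and 28.6%. Cd8a T cells followed the same order in the cell cycle list, with 15.0% and 60.6% in these libraries. Unthinned, the cytotoxic list was present in 73.2% of spleen and 100% of kidney gamma-delta cells and the checkpoint list in 62.5% and 38.7%. A class cut in this way is a range, as 56 thinned spleen cells had exactly 1 cytotoxic gene.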

How the data were processed

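CD45+ cells of 1 sample of rejecting kidney and 1 of naive spleen were used, as grouped by the labels, and the authors' CD8 T cell barcodes for comparison. The authors deposited raw UMI counts of filtered cells, and the submitters' processing notes name Cell Ranger and mm10. The version, the filter limits, and the mouse behind each library are not given in the sources used here. Kidney counts cover 32285 genes and spleen counts 17644, all of them shared and used. Other samples of the series were not used here, and some genes of the lists are not reported here.

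Cells were chosen and thinned to 1000 UMIs in Python 3.11.15 (numpy 2.4.6, scanpy 1.11.5 for Scrublet, scipy 1.17.1 for exact permutation tests between libraries and for 95% Clopper-Pearson intervals). UMIs were summed per library and population of at least 5 cells, the 10 genes that chose populations were removed, and edgeR 4.0.16 (R 4.3.3) was fitted with plain totals, filterByExpr, and a library term. Kidney against spleen was fitted on gamma-delta sums alone. The procedure was tested on simulated data. Intervals and limits from 3 UMIs cover counting error only. Sequences, coordinates, and intron lengths are from GENCODE M21.

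The members, lists, and alternatives were chosen with earlier results of these data known. Named genes are 2 to 4 per list by smallest p, those at 0, and the 8 largest and 8 smallest log2 differences among called genes with at least 100 CPM in a population, leaving out genes of ribosomal proteins, immunoglobulins, T cell receptors, and mitochondria. Cd226 and Tyrobp in kidney against Cd8a T cells and levels in other populations were added after their values were seen. Alternatives, whose effect is given at the end, were TMM factors, DESeq2 1.42.0, no filter, no library term, 1 tissue only, stricter gates, quality limits (200 to 7000 genes, 1000 to 40000 UMIs, at most 10% mitochondrial UMIs), doublets left out, and each library left out.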

Additional observations from a re-analysis of the deposited data

Results flagged for a closer look

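In spleen gamma-delta cells, 8 of 78 named genes with UMIs in every library had 1 library set apart from the other 4 by a Dixon test, where chance alone gives about 1 in 20, and 7 of them are described. Dph5 stood at 88.5 CPM in library 4, beside 41.2 to 88.5 CPM over all 5. Klrc2 stood at 277 CPM in library 5, beside 128 to 277 CPM over all 5. Lef1 stood at 427 CPM in library 2, beside 198 to 427 CPM over all 5. Maf stood at 25.5 CPM in library 3, beside 25.5 to 67.4 CPM over all 5. Rasgrp2 stood at 144 CPM in library 1, beside 144 to 212 CPM over all 5. Tcrg-V1 stood at 89.0 CPM in library 2, beside 24.5 to 89.0 CPM over all 5. Tyrobp stood at 132 CPM in library 1, beside 8.16 to 132 CPM over all 5. Library 1 accounts for 2 of these 7 genes.

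The difference between gamma-delta and Cd8a T cells changed between spleen and kidney, by the interaction test in edgeR, for 22 named genes of the lists. These genes were named by the smallest p of this same test, so their number is no separate support. Over all genes, 179 of 11280 were called (1.59%), and with DESeq2 fewer list genes were called lower. Among receptor genes the change was -3.60 for Trgv2, -3.40 for Tcrg-C2, -4.18 for Tcrg-C1, -1.75 for Tcrg-C4, and -1.08 for Trbc2 on the log2 scale. A value below 0 means that the difference from Cd8a T cells was lower in kidney. It does not give the level in gamma-delta cells, which for Trgv2 was higher in kidney than in spleen. Among cytotoxic and IL-17 genes it was -3.05 for Maf, -4.23 for Ifng, -1.39 for Il2rb, -0.93 for Nkg7, and -2.77 for Fasl, which encodes a death ligand. Of NK receptors, Klra7 and Klra1 changed by 4.83 and 6.03, the latter fitted on 3 UMIs in kidney Cd8a T cells, and Klrc1 and Klrc2 changed by -3.56 and -2.62. Checkpoint genes gave -6.13 for Pdcd1, -2.46 for Tox, -3.40 for Icos, and -4.01 for Tnfrsf9, the costimulatory receptor 4-1BB. Residency genes gave -4.76 for Ccr2 and -2.70 for Itga1, and Cd7 and Satb1 gave 1.91 and 2.05. The values of Ccr2 and Icos are fitted on 2 UMIs each in kidney gamma-delta cells and that of Tnfrsf9 on 1, and the kidney estimates rest on 31 cells.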

How the results depend on the processing

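Kidney sums rest on 10 and 21 cells. Without 1 library at a time, the calls numbered 943 to 1362 against Cd8a and 833 to 1159 against Cd4 T cells in spleen, 20 to 174 and 35 to 236 in kidney, 236 to 753 between the tissues, and 36 to 190 in the interaction, each lowest kidney, tissue, and interaction count being without kidney library 2. The share of CD3+ cells differed by -1.75 to -0.950 points. With TMM the calls were 785 (spleen, Cd8a), 437 and 427 (kidney, Cd8a and Cd4), and 277 (interaction), and DESeq2 gave 696 against spleen Cd8a T cells. Without the library term, which treats the populations of a library as unpaired, they were 49, 103, and 53 for both kidney comparisons and the interaction. Cells without Trac, Trbc1, or Trbc2 UMIs left 1 library of at least 5 cells per tissue and gave 11, 19, 15, 13, and 10 calls in the order Cd8a and Cd4 in spleen, Cd8a and Cd4 in kidney, and interaction, and the share turned to 0.186 points. The comparison between tissues could not be fitted with these cells. Cells without a Trac UMI, chosen after seeing the data, gave 1143, 1009, 147, 217, and 166 calls in that order, and 620 between tissues. The library tags pair populations within a library, and no replicate number pairs kidney with spleen. No paired analysis was possible because the labels give no replicate numbers that kidney and spleen share.

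Signs turned for Trbc1 in spleen against Cd8a (-0.28 with TMM and -0.24 with DESeq2), Ltb there (-0.057, -0.027, and, without Trac, Trbc1, or Trbc2, -0.041) and against Cd4 (-0.081 in those cells), Ccr7 (0.10 in those cells), Hbb-bs (-3.46 to 0.18 without 1 library, the latter without spleen library 1), and Ikzf2 without kidney library 2 (without 1 library -0.47 to 1.64 against Cd4 and -0.23 to 1.73 against spleen). Of the values of named genes, 295 of 324 kept direction and side of the threshold with TMM, 256 of 321 with DESeq2, 212 of 271 with no library term, 179 of 266 without kidney library 2, and 37 of 117 in cells without Trac, Trbc1, or Trbc2 UMIs, where 75 lost their call and 149 more had no value, in a fit with 1 gamma-delta library of 6 cells per tissue, which is assumed to vary like the other populations, so that its lost calls say nothing about stability. The cause of these changes was not tested.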
